A study of Mus musculus with 11 samples.

Results

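The pyruvate dehydrogenase complex and the enzymes that switch it off and on were followed through 9 genes in myoblasts with and without the clock factor Bmal1, kept at 21% or 1% oxygen. The 9 genes were the kinases Pdk1, Pdk2, Pdk3 and Pdk4, the phosphatase Pdp1 and the subunit genes Pdha1, Pdhb, Dlat and Dld. They were chosen by name, with earlier results of these data known. Shares of all genes given beside their counts are therefore no test of an excess. Each name matched 1 Ensembl identifier among the 22104 genes listed, and all 9 passed the filter on low values that left 14729 genes to test. The cells were primary myoblasts, the dividing precursors of muscle fibres, taken from skeletal muscle of young adult C57BL/6 mice of about 8 weeks. The 4 groups were wild-type cells at 21% oxygen (normoxia, 2 libraries), wild-type cells at 1% oxygen (hypoxia, 3 libraries), Bmal1-/- cells at 21% oxygen (3 libraries) and Bmal1-/- cells at 1% oxygen (3 libraries). Each culture spent 6 h at its oxygen level, in a medium with serum and basic fibroblast growth factor that all groups shared. Neither the removed stretch of Bmal1 nor the origin of the libraries of a group (separate mice, separate dishes or repeats) is given in the labels. The p-values therefore rest on library-to-library spread, part of which may be technical.

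The complex sits in the mitochondrial matrix and turns pyruvate, the end product of glycolysis, into acetyl-CoA for the citric acid cycle. Its first enzyme is built from alpha subunits (Pdha1) and beta subunits (Pdhb) and removes carbon dioxide from pyruvate, the next (Dlat) passes the acetyl group to coenzyme A, and the last (Dld) restores the lipoyl arms of Dlat by making NADH. The kinases attach phosphate to the alpha subunit and so stop the complex, and the phosphatases remove it and start the complex again. In muscle, Pdk4 is known as the kinase that rises in fasting, when fat replaces glucose as fuel, and Pdk1 is known as a target of the hypoxia-inducible factors (HIF). These data are transcript levels and hold no measure of phosphorylation or of the activity of the complex.

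Libraries held 18707697 to 33613328 reads assigned to genes, and each of the 6 hypoxia libraries (23027613 reads or more) was deeper than each of the 5 normoxia libraries (21451760 or fewer). Values are normalized read counts, that is reads divided by the size factor of the library. Arntl, the gene symbol of Bmal1, stood at 264 to 328 in the wild-type libraries and at 98.8 to 134 in the knockout libraries, so its reads were fewer but not absent. All 9 myoblast markers were present, their summed level being 52013 to 61667 in a library. The 6 endothelial markers summed to 23.3 to 62.2, the 6 leukocyte markers to 12.4 to 42.8, of which Ptprc, Adgre1 and Cd3e were not in the table, the 4 Schwann cell markers to 23.2 to 41.2 and the 4 adipocyte markers, of which Plin1, Cidec and Lep were not in the table, to at most 2.05. The 5 markers of pericytes and smooth muscle summed to 464.7 to 677.5, of which Rgs5 alone gave 404.7 to 611, with Higd1b not in the table. Several sums differed between genotypes. The Schwann cell sum was 23.2 to 28.6 in wild-type and 33.5 to 41.2 in knockout libraries, with its 1 tested marker not called. The myoblast sum was 52013 to 56128.5 and 58214.5 to 61667, of which Chrna1 alone gave 19249.5 to 20147.3 and 22300 to 22956. The pericyte and smooth muscle sum was 464.7 to 556.0 and 597.2 to 662.8 in normoxia and overlapped in hypoxia. Of its 3 tested markers 1 was called higher in knockout cells over both oxygen levels, where 7.39% of all tested genes were. Fibroblast and differentiated muscle markers also differed and are given beside Pdk4.

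The 250 bases before the RefSeq start site of the 4 kinase genes (build GRCm38.p6, strand of the gene) are shown because the kinases divided by condition, Pdk1 and Pdk3 rising at low oxygen and Pdk4 standing higher without Bmal1. Capitals mark ACGTG or GCGTG, the core letters that HIF is known to bind, and CACGTG, the E-box that CLOCK and BMAL1 are known to bind, each searched on both strands. An E-box holds ACGTG on each strand, so those matches overlap. The windows lie at chr2:71872974-71873223 (Pdk1, plus strand), chr11:95041372-95041621 (Pdk2, minus strand), chrX:93832151-93832400 (Pdk3, minus strand) and chr6:5496279-5496528 (Pdk4, minus strand).
Pdk1: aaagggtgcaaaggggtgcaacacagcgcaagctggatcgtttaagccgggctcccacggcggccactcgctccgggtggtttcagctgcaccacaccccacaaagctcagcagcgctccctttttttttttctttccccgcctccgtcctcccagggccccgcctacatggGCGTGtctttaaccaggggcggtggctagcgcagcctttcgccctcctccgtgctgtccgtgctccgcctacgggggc
Pdk2: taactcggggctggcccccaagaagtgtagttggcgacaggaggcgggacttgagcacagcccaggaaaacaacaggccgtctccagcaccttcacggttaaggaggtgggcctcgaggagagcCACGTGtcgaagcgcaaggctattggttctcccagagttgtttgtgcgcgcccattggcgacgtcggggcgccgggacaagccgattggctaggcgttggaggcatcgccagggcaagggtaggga
Pdk3: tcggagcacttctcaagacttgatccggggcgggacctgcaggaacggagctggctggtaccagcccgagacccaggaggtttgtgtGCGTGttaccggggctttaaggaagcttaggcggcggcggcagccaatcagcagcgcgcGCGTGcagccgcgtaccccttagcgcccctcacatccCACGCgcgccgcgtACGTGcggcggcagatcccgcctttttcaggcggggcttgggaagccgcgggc
Pdk4: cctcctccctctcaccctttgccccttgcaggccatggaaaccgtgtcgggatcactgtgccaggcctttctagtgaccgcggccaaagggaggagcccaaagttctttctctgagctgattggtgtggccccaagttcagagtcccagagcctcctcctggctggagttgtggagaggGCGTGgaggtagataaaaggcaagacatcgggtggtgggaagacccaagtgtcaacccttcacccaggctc

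Pdk1 held 1 GCGTG, from 78 to 74 bases before the start, and Pdk4 held 1 from 71 to 67 bases before it. Pdk3 held 3 GCGTG and 1 ACGTG, the last from 53 to 49 bases before the start. Pdk2 alone of the 8 members with a window held an E-box, from 126 to 121 bases before the start. Pdk1 and Pdk2 each had 2 RefSeq windows, and only the window nearest the annotated gene start was read for them. At least 1 ACGTG or GCGTG stood in 38.6% of the 32851 windows of this length in the mouse table, at least 4 stood in 2.58% and an E-box in 6.02%. AGGTCA, a core element of many nuclear receptors, was in 14% of windows and in none of the members'. Among the subunit genes, Pdha1 held 3 GCGTG, Pdhb held 1 ACGTG and 1 GCGTG, and Dlat and Dld held neither. Such matches describe letters in a short window and say nothing on binding. Pdp1 had no entry.

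Levels of different genes were compared per kilobase of annotated exon. In wild-type normoxia Pdha1 stood at 1156.5 ± 21.9 normalized reads per kilobase (SD, n = 2), above Dld at 495.5 ± 23.9, Dlat at 490.9 ± 2.74 and Pdhb at 339 ± 12.4. Dld and Dlat differed by less than the SD of Dld. Of the kinases Pdk3 had the highest level per kilobase, 249 ± 9.76, followed by Pdk1 at 119 ± 12.3 and Pdk4 at 109 ± 6.84, which differed by less than the SD of Pdk1, and by Pdk2 at 28.8 ± 2.4. Pdp1 stood at 206.5 ± 8.49. Pdk3 was therefore the most abundant kinase transcript of wild-type myoblasts at 21% oxygen by this measure, with 49.2% ± 0.68 of the sum of the 4 kinases.

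At low oxygen Pdk1 took the place of Pdk3 as the leading kinase. Without Bmal1 the share of Pdk4 in normoxia was larger, though still below that of Pdk3. In wild-type hypoxia Pdk1 made up 51.9% ± 4.36 (SD, n = 3) of kinase transcripts per kilobase, against 23.5% ± 1.84 (SD, n = 2) in normoxia, and the share of Pdk3 was 33.4% ± 2.42 (SD, n = 3). In knockout normoxia Pdk4 held 35.4% ± 0.761 (SD, n = 3), against 21.6% ± 1.9 (SD, n = 2) in wild-type normoxia, behind Pdk3 at 38.6% ± 0.446. In knockout hypoxia the shares were 48.8% ± 1.95 for Pdk1, 28.4% ± 1.04 for Pdk3, 19.8% ± 1.25 for Pdk4 and 2.96% ± 0.104 for Pdk2. The summed kinase level per kilobase, relative to Pdp1 per kilobase, was 2.45 ± 0.0386 in wild-type normoxia and 4.88 ± 0.299 in wild-type hypoxia, 2.73 ± 0.0841 in knockout normoxia and 5.27 ± 0.262 in knockout hypoxia. Relative to Pdha1 the sum was 0.438 ± 0.0194, 0.762 ± 0.0887, 0.502 ± 0.0103 and 0.819 ± 0.0633 in the same order. With the longest transcript as the length the order of the 4 kinases in each group did not change. The share of Pdk1 in wild-type normoxia and hypoxia was then 28.3% and 57.8%. In knockout normoxia Pdk4 then held 29.5% and Pdk3 38.6%, so how near Pdk4 came to Pdk3 depended on the length used. The kinase sum relative to Pdp1 was 2.85 and 6.13 in the wild-type groups. These shares and ratios are descriptions, with no test.

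**Figure D1:**
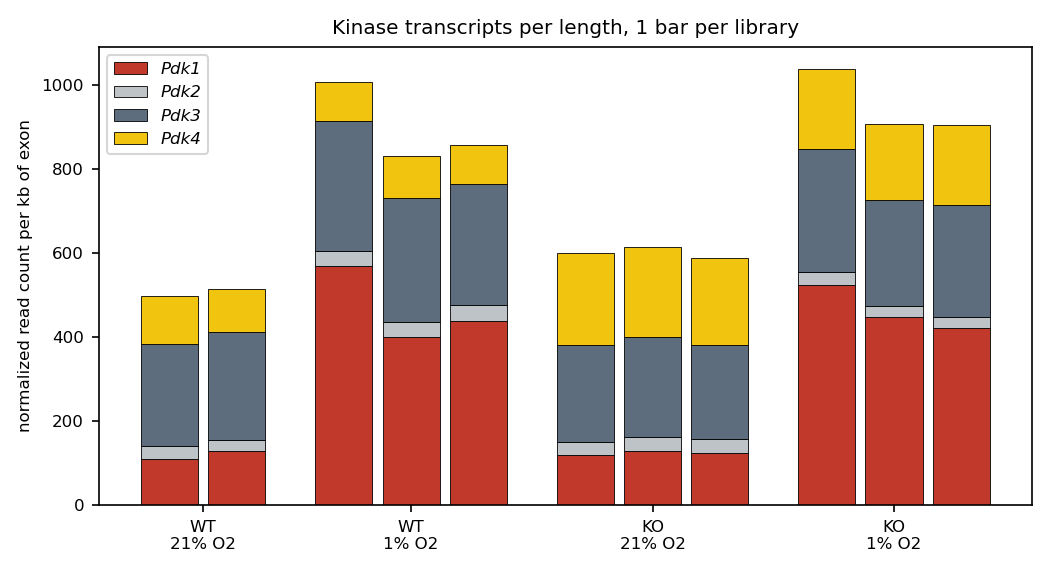
Normalized read counts per kilobase of exon (vertical axis) of Pdk1, Pdk2, Pdk3 and Pdk4, stacked in 1 bar per library, for wild-type (WT) and Bmal1 knockout (KO) myoblasts at 21% or 1% oxygen. The Pdk1 segment grows at 1% oxygen in both genotypes, from 119 to 469 on average in wild-type cells, and the Pdk4 segment is taller in all 6 knockout bars.

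Pdk1 (ENSMUSG00000006494, chromosome 2, 71873224 to 71903858 in GRCm38) was raised by low oxygen in both genotypes. Wild-type cells at 21% oxygen gave normalized read counts of 858 and 993, and at 1% oxygen 4432, 3105 and 3405. Knockout cells gave 933, 997 and 969 at 21% oxygen, and 4069.7, 3487 and 3279.7 at 1%. Every hypoxia library lay above every normoxia library, and the hypoxia libraries also spread more widely, replicate 1 being the highest in each genotype. The log2 change was 1.96 in wild-type cells (3.9-fold, SE 0.12, limma adjusted p = 4.38e-07) and 1.90 in knockout cells (3.72-fold, SE 0.11, adjusted p = 1.89e-07). Pdk1 was the only member called upward in either comparison, 1 of 9, where 1.7% of all tested genes rose in wild-type hypoxia and 3.15% in knockout hypoxia. Averaged over both genotypes, the change was 1.93 (SE 0.08), with a 95% interval of 1.75 to 2.11.

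**Figure D2:**
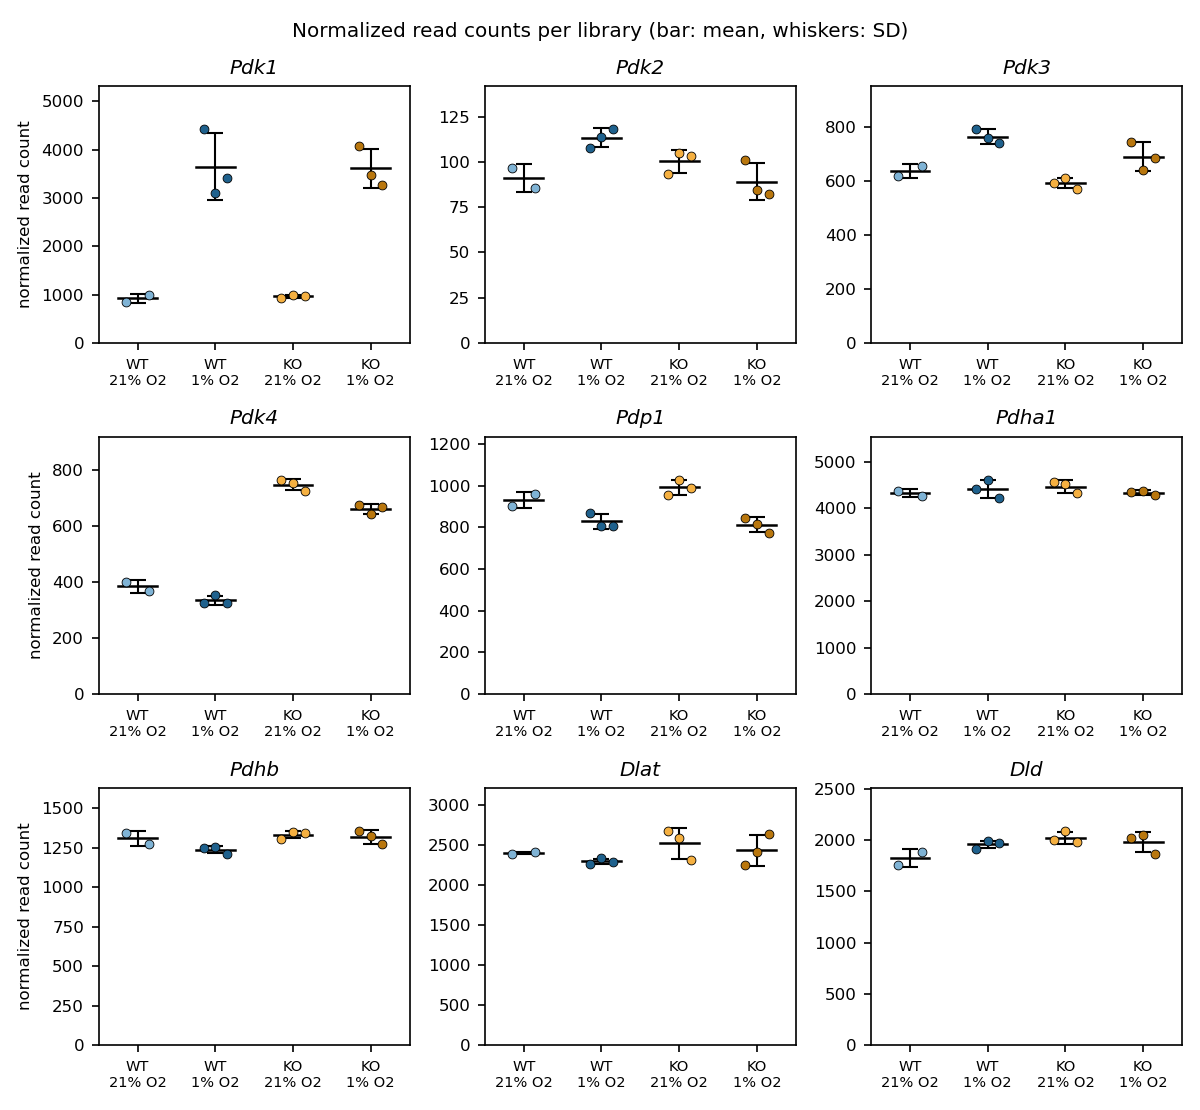
Normalized read count (vertical axes, starting at 0) of the 9 genes in each of the 11 libraries, by genotype (WT wild-type, KO Bmal1 knockout) and oxygen level, with a bar for the group mean and whiskers for the SD. Pdk1 separates by oxygen and Pdk4 by genotype, while Pdha1 stays between 4209 and 4607 in all 11 libraries.

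Pdk3 (ENSMUSG00000035232, chromosome X, 93764607 to 93832201) moved the same way by a much smaller amount. In wild-type cells the normalized read counts were 620.0 and 655 at 21% oxygen, against 794, 758 and 741 at 1%. In knockout cells they were 594.5, 611 and 572 at 21% oxygen, against 746, 640.3 and 685 at 1%. The groups did not overlap within either genotype, but the lowest knockout hypoxia library lay below the higher wild-type normoxia library. Neither genotype alone passed the test (log2 change 0.26, adjusted p = 0.1, in wild-type and 0.22, adjusted p = 0.089, in knockout cells). Over both genotypes together Pdk3 rose by 0.24 (1.18-fold, SE 0.05, adjusted p = 0.00893).

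Pdk4 (ENSMUSG00000019577, chromosome 6, 5483351 to 5496309) was slightly lower at 1% oxygen. Wild-type counts were 400.5 and 366.5 at 21% oxygen, against 325, 352 and 323 at 1%. Knockout counts were 763, 751 and 725 at 21% oxygen, against 674, 640.3 and 665 at 1%. Within each genotype the hypoxia libraries lay below the normoxia libraries. The change did not pass in wild-type cells (log2 -0.20, SE 0.07, adjusted p = 0.22) or in knockout cells (-0.18, SE 0.06, adjusted p = 0.16). Averaged over the genotypes Pdk4 fell by 0.19 on the log2 scale (SE 0.05, adjusted p = 0.0289). That call was lost when any 1 of 7 libraries was left out, namely wild-type normoxia replicate 1, knockout normoxia replicates 1 and 2, wild-type hypoxia replicates 1 and 3 and knockout hypoxia replicates 2 and 3 (adjusted p = 0.0517 to 0.127).

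Pdk2 (ENSMUSG00000038967, chromosome 11, 95026258 to 95041354), a kinase found in most tissues, had the fewest reads of the members, 75 to 162 in a library. Its normalized counts in wild-type cells were 96.4 and 85.6 at 21% oxygen, against 108, 114 and 118 at 1%. For the knockout they were 93.1, 105 and 103 at 21% oxygen, against 101, 84.5 and 82.0 at 1%. Wild-type groups did not overlap, while the knockout groups did. The log2 change was 0.31 in wild-type cells (SE 0.14, adjusted p = 0.331) and -0.17 in knockout cells (SE 0.12, adjusted p = 0.508), and neither passed. An antisense gene lies within Pdk2, and whether strand was used in the counting is not given in the sources used here, so reads of both could be mixed.

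Pdp1 (ENSMUSG00000049225, chromosome 4, 11958184 to 11966452), which encodes the phosphatase that reactivates the complex, went down at low oxygen. The wild-type values were 904 and 958 at 21% oxygen, against 870.2, 808 and 807 at 1%. The knockout values were 956, 1028 and 991 at 21% oxygen, against 846, 816.5 and 774 at 1%. All 6 hypoxia libraries lay below all 5 normoxia libraries. Pdp1 fell in knockout cells by 0.29 on the log2 scale (SE 0.06, adjusted p = 0.0109), the only member called downward there, 1 of 9, where 0.937% of all tested genes fell. That call was lost without knockout normoxia replicate 2 (adjusted p = 0.0537) or knockout hypoxia replicate 3 (adjusted p = 0.0578). In wild-type cells the change was -0.17 (SE 0.06, adjusted p = 0.261), with 0 of 9 members called downward and 0.468% of all genes. Over both genotypes Pdp1 fell by 0.23 (SE 0.04, adjusted p = 0.00514).

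Over both genotypes, 2 of the 9 genes (Pdk1 and Pdk3) rose at low oxygen and 2 (Pdk4 and Pdp1) fell, where 4.89% of tested genes rose and 2.56% fell. The median log2 change was -0.0068 over the 9 members and -0.0034 over all tested genes. Because hypoxia libraries were the deeper ones, depth and oxygen moved together, and the part of depth in these changes was not tested. In the 3 hypoxia comparisons TMM scaling in place of the authors' size factors shifted the median of all genes by less than 0.01. Both scalings are made to hold most genes level, so this small shift does not bear on depth. Some cell-state markers also moved with oxygen in the mean over genotypes. Of the 8 differentiated muscle markers 2 fell, Myog by 0.25 on the log2 scale (adjusted p = 0.0316) and Mymk by 0.27 (adjusted p = 0.0484), and their summed level overlapped between oxygen levels in each genotype. Of the 9 myoblast markers 1 fell, Vcam1 by 0.19 (adjusted p = 0.00318), and of the 6 tested fibroblast markers 1 rose, Cd34 by 0.44 (adjusted p = 0.00107). The summed fibroblast level was 1555 to 1558 and 1695 to 1761 in wild-type normoxia and hypoxia, and 766 to 822 and 880.1 to 947 in the knockout groups. The part of these shifts in the changes of the members was not tested.

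The subunit genes were nearly level across all 11 libraries. Pdha1 (ENSMUSG00000031299, chromosome X, 160122209 to 160138413), the subunit that the kinases phosphorylate, ranged from 4209 to 4607 with a median of 4372, so the highest library was 1.09 times the lowest. Pdhb (chromosome 14, 8165996 to 8173025) ranged from 1210.3 to 1357 with a median of 1308, a ratio of 1.12. Dlat (chromosome 9, 50634633 to 50659780), the core to which the kinases attach, ranged from 2253 to 2677 with a median of 2389. Dld (chromosome 12, 31331277 to 31351453), which also serves other dehydrogenase complexes, ranged from 1762 to 2093 with a median of 1981. By comparison the highest library was 5.17 times the lowest for Pdk1 and 2.36 times for Pdk4. Pdha1 overlaps the end of Map3k15 on the other strand, so some of its reads could belong to that gene.

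None of the 4 subunit genes was called in any of the 7 comparisons by limma (0 of 4), nor by edgeR or DESeq2 on the recovered reads. Since at most 9.8% of all genes were called in one direction in any of these comparisons, 0 of 4 is near the background. At an unadjusted p under 0.05 limma gave 0 in the hypoxia comparisons and 1, Dld, in the normoxia genotype comparison and in the mean genotype effect. Over all genes 13.6%, 17.5% and 21.8% passed this threshold in the wild-type, knockout and mean hypoxia comparisons, and 23.4% and 30.0% in those genotype comparisons, so these counts too are near the background. For low oxygen the estimates lay between -0.08 and 0.10 in wild-type cells, with 95% intervals reaching from -0.21 to 0.22, and between -0.05 and -0.02 in knockout cells, with intervals reaching from -0.19 to 0.08. Averaged over the genotypes the intervals of the 4 genes spanned -0.16 to 0.11. For the genotype effect averaged over oxygen levels they spanned -0.06 to 0.18. Dld came nearest to a call, at 0.15 in the normoxia genotype comparison (SE 0.05, adjusted p = 0.112), its 3 knockout libraries (1999, 2093 and 1981) lying above both wild-type ones (1762 and 1887).

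**Figure D3:**
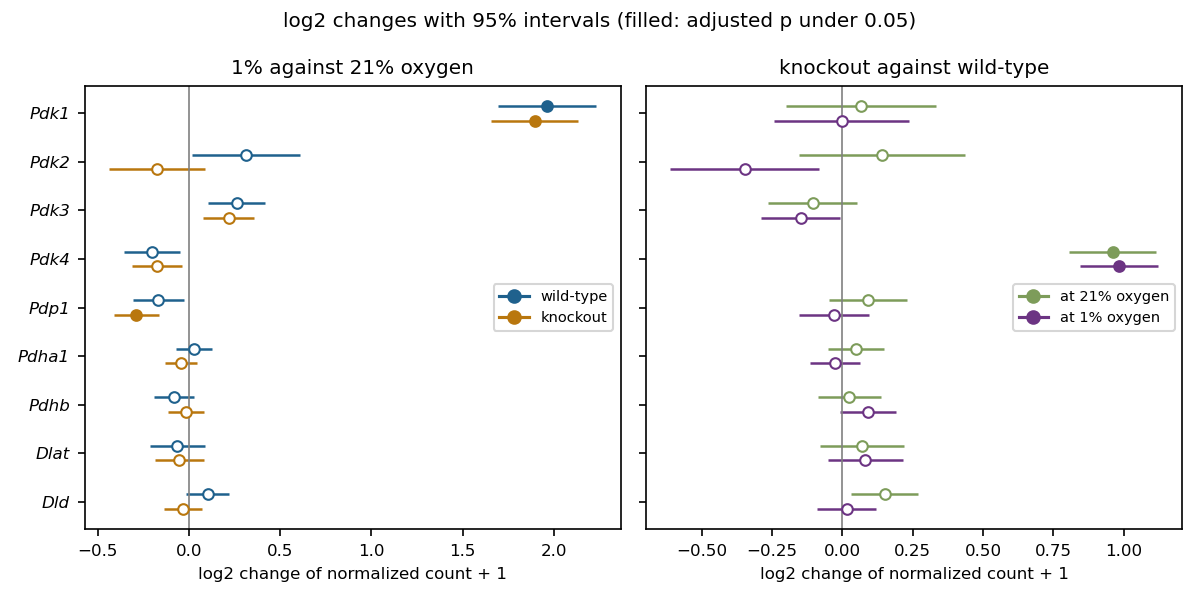
log2 changes of the 9 genes with 95% intervals, on the left for 1% against 21% oxygen in wild-type and knockout cells, on the right for knockout against wild-type at 21% and at 1% oxygen (the axes differ in range). Filled points have a limma adjusted p under 0.05, as for Pdk1 at 1.96 and 1.90 on the left and Pdk4 at 0.96 and 0.98 on the right.

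Pdk4 was higher in cells without Bmal1, and it was the only member called for genotype. The values given above put all 6 knockout libraries (640.3 to 763) above all 5 wild-type libraries (323 to 400.5). The log2 difference was 0.96 in normoxia (1.95-fold, SE 0.07, adjusted p = 1.6e-06) and 0.98 in hypoxia (1.98-fold, SE 0.06, adjusted p = 2.91e-07). Pdk4 was thus 1 of 9 members called upward, where 3.44% of tested genes were higher in knockout cells in normoxia and 3.33% in hypoxia. No member was called downward (0 of 9), where 5.66% and 5.61% of genes were. In the mean over both oxygen levels the difference was 0.97 (SE 0.05), again 1 of 9 upward against 7.39% of all genes, and 0 of 9 downward against 9.8%. Pdk3 had -0.13 there (SE 0.05, adjusted p = 0.096), Pdk2 -0.10 (adjusted p = 0.5) and Pdk1 0.03 (95% interval -0.15 to 0.21, adjusted p = 0.844). For Pdk3 the adjusted p became 0.0446 without knockout hypoxia replicate 1.

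Markers of other cell states differed between the genotypes along with Pdk4. For comparison, 7.39% of all tested genes were called higher and 9.8% lower in knockout cells in the mean over oxygen levels. All 8 markers of differentiated muscle were higher in knockout cells in the mean over oxygen levels, among them the embryonic myosin Myh3 (0.67, SE 0.06, adjusted p = 2.84e-06) and the regulator Myog (0.33, SE 0.06, adjusted p = 0.00293). Their summed level was 27963 to 32318 and 24153 to 31963 in wild-type normoxia and hypoxia, and 38859 to 44975 and 38799 to 42620.4 in the knockout groups, with no overlap between the genotypes. All 6 tested fibroblast markers of a list of 8 were lower in knockout cells, with Pdgfra at -1.33 (SE 0.05), and the summed level was 1555 to 1761 in wild-type and 766 to 947 in knockout libraries. Of the 9 myoblast markers 4 rose and 0 fell, Myf5 by 0.55 (SE 0.05), while Myod1 (-0.04, adjusted p = 0.594) and Pax7 (-0.11, adjusted p = 0.279) did not pass. In these bulk samples a different mix of cells and a different level of RNA in each cell cannot be told apart, and the part of the mix in the Pdk4 difference was not tested.

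**Figure D4:**
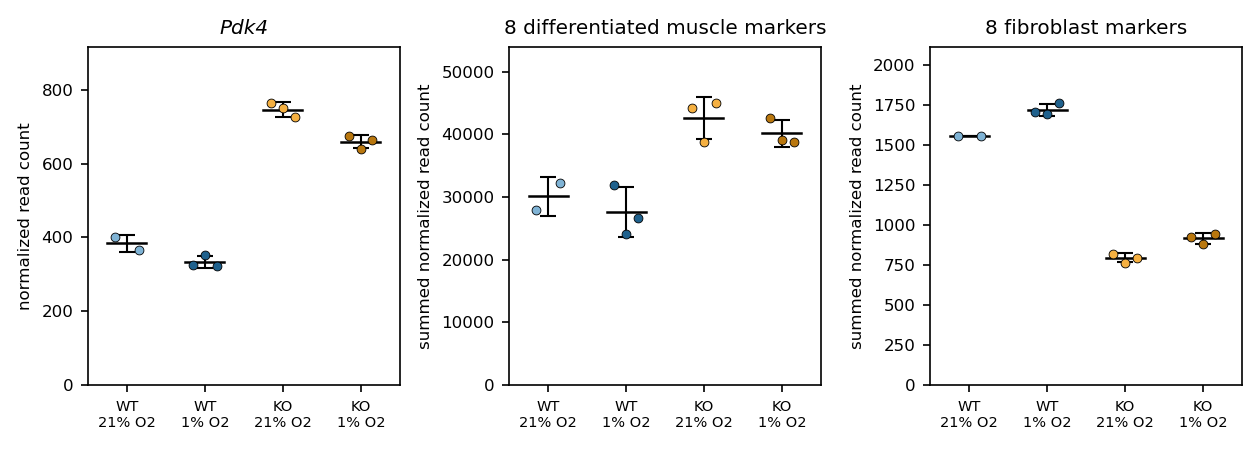
Normalized read count of Pdk4 (left) and summed normalized read counts of 8 differentiated muscle markers (middle) and 8 fibroblast markers (right) in each library, with group mean and SD, for wild-type (WT) and Bmal1 knockout (KO) cells. All knockout libraries are above all wild-type libraries in the left and middle panels and below them in the right panel.

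Whether the oxygen response differed between the genotypes was tested as the hypoxia effect in knockout minus that in wild-type cells. None of the 9 members was called by limma (0 of 9, where 0.00679% of all genes were called upward and 0% downward), nor by edgeR or DESeq2, and at an unadjusted p under 0.05 limma and edgeR each gave 1 member and DESeq2 gave 0, where 5.32% of all genes passed that threshold in limma. In limma that member was Pdk2, with a difference of -0.49 (SE 0.18, unadjusted p = 0.0197, adjusted p = 0.905). For Pdk1 the difference was -0.07 with a 95% interval of -0.43 to 0.29, for Pdk4 0.02 (-0.18 to 0.23), for Pdk3 -0.04 (-0.25 to 0.17) and for Pdp1 -0.12 (-0.31 to 0.07). These intervals leave room for moderate differences in either direction.

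Other genes around the complex were read from lists. Of the 3 listed companions of the members, Pdhx, which tethers Dld to the core, Pdp2, the other catalytic phosphatase, and Pdpr, the regulator of the phosphatase, 0 were called in any comparison. Their mean hypoxia effects were -0.17, -0.14 and -0.08. At most 9.8% of all genes were called in one direction in any comparison, so 0 of 3 is near the background. Of all genes 1.7% rose and 0.468% fell at low oxygen in wild-type cells, and 3.15% and 0.937% in knockout cells. Of the 9 genes of pyruvate supply and its other fates, 4 rose and 0 fell in wild-type and again in knockout cells (median 0.28 and 0.18). These were Slc16a3 and Slc16a1, which carry lactate and pyruvate across the cell membrane, Ldha, which makes lactate from pyruvate, and Pkm, which makes pyruvate. In the mean over genotypes Slc16a3 rose by 1.85 (SE 0.06), Ldha by 0.72 (SE 0.03) and Pkm by 0.36 (SE 0.03). The mitochondrial pyruvate carrier genes Mpc1 (-0.17, adjusted p = 0.171) and Mpc2 (-0.04, adjusted p = 0.83) did not pass. Gpt2, which makes alanine from pyruvate, was higher in knockout cells in the mean over oxygen levels (0.24, SE 0.05, adjusted p = 0.00494).

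In the mean hypoxia effect 4.89% of all genes rose and 2.56% fell. Of 13 tested genes that supply the lipoate and thiamine cofactors, 0 rose and 2 fell there (median -0.13). They were the thiamine transporter Slc19a2 (-0.25, SE 0.04, adjusted p = 0.00116) and Nfu1, which delivers iron-sulfur clusters (-0.22, SE 0.05, adjusted p = 0.0168), the latter no longer called (adjusted p = 0.0847) when wild-type normoxia replicate 2 was left out. Of 11 tested genes of the sister dehydrogenase complexes, 0 rose and 2 fell (median -0.01). Dlst, the core of the oxoglutarate dehydrogenase complex, changed by -0.13 (SE 0.03, adjusted p = 0.00597) and Dhtkd1, an enzyme of lysine breakdown, by -0.59 (SE 0.13, adjusted p = 0.0145), the latter no longer called (adjusted p = 0.0716) when wild-type normoxia replicate 1 was left out.

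The switch to fat as fuel, the setting in which Pdk4 is best known, was read from 12 tested regulators and targets. In the mean hypoxia effect 5 rose, 0 fell and 7 were not called (median 0.15), where 4.89% of all genes rose and 2.56% fell. Pdk4 itself was lower at 1% oxygen, by the call given above that single left-out libraries undid. Mean counts of the list genes Esrra, Cpt1a and Cpt1b, not called, were lower at 1% oxygen in both genotypes. Their libraries overlapped between oxygen levels in each genotype. Mean counts of Acadl, Ppard, Foxo1, Foxo3, Nr3c1, Angptl4 and Plin2 were higher in both genotypes. Those of Ppara and Ppargc1a moved in opposite directions in wild-type and knockout cells. Angptl4, which slows the release of fat from lipoproteins, rose by 0.90 (SE 0.11, adjusted p = 9.92e-05), the transcription factor Foxo3 by 0.28 (SE 0.04) and the glucocorticoid receptor Nr3c1 by 0.27 (SE 0.05). Between genotypes, averaged over oxygen levels, 1 of the 12 rose and 2 fell (median -0.02), where 7.39% of all genes rose and 9.8% fell. Acadl, an enzyme of fat oxidation, was higher in knockout cells (0.20, SE 0.04, adjusted p = 0.00659), and the lipid droplet coat protein Plin2 (-0.19, SE 0.04, adjusted p = 0.00279) and Nr3c1 (-0.21, SE 0.05, adjusted p = 0.0155) were lower, the last of these not called (adjusted p = 0.0653) when wild-type normoxia replicate 2 was left out.

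The genes with the most similar profile were sought among 10699 tested genes with a mean of at least 50, by Pearson's correlation of log2 values over the 11 libraries. The libraries fall into groups, so r mostly reflects the group differences. For Pdk1 the nearest were Pfkl, the liver-type phosphofructokinase (r = 0.996), Egln3, a prolyl hydroxylase (0.995), Adm, a peptide hormone (0.995), Tpi1, triose-phosphate isomerase (0.994), and Bnip3, a mitophagy receptor (0.994). For Pdk3 they were P4hb, a protein disulfide isomerase (0.958), and Ndufa4l2 (0.947), and for Pdk4 Syt14 (0.986). Syt14 averaged 125 and 104 in wild-type and 254 and 248 in knockout normoxia and hypoxia. For Pdp1 they were Atp5h, an ATP synthase subunit (0.948), and Naa20, an acetyltransferase subunit (0.942). The nearest genes of Pdk2 had 0.829 (Las1l) and 0.824 (Ing2). Those of Pdha1 were Ndufaf5 and Gmfb, of Pdhb Lnpk and Nadsyn1, of Dlat Blcap and Qtrt2, and of Dld Limd1 and Bbs9, all with r of 0.882 to 0.937.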

How the data were processed

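RNA of 11 libraries was measured. The deposited values are signal: read counts per gene divided by the authors' size factor of the library. Per the submitters' processing notes, bcl2fastq, STAR, Picard, HTSeq, RSEM, DESeq2 and build mm10 were used, without versions or roles. Whole reads were recovered for 100% of values within 0.01 read, and 0 sample columns were unused. Symbols were found for 21805 of 22104 identifiers. Positions and exon lengths came from GENCODE M21 (GRCm38) and promoters from RefSeq.

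A gene was kept if 2 or more libraries had a value of 10 or more, and all kept genes were fitted together with limma 3.58.1 in R 4.3.3, on log2(value + 1), which understates changes of low genes. The model had 4 groups and a variance trend (7 residual and 6.35 prior degrees of freedom). The 7 comparisons were two-sided, with Benjamini-Hochberg adjustment over all 14729 genes, called under 0.05. The fit was also run on simulated counts with shifts in wild-type hypoxia alone. These shifts were larger than the low-oxygen changes of Pdk3, Pdk4 and Pdp1, so recovery of changes that small was not tested. Alternatives were other pseudocounts, filters and scaling, no trend, fits of the compared groups only, edgeR 4.0.16 and DESeq2 1.42.0 on recovered reads, and each library left out.

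The members and gene lists were chosen with earlier results of these data known. Named were the 9 members, Pdhx and Pdp2, from each list and comparison the called genes of lowest adjusted p (at most 3), and the genes most correlated with each member (5 for Pdk1, 2 for the others, of which 1 is not reported here). Pdpr, Mpc1, Mpc2, Slc16a1, Esrra, Cpt1a, Cpt1b, Foxo1, Ppard, Ppara, Ppargc1a and the marker genes with values were singled out after their values were seen. The labels link no library of one group to one of another, so no pairing was used. No group had 4 libraries, so no library was tested for standing apart.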

Additional observations from a re-analysis of the deposited data

How the results depend on the processing

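Over the alternatives, the calls of Pdk1 for low oxygen and of Pdk4 for genotype were kept in all 19 or 20 fits of each comparison, with log2 changes of 1.82 to 2.07 for Pdk1 in wild-type, 1.81 to 1.96 for Pdk1 in knockout cells, 0.90 to 1.02 for Pdk4 in normoxia and 0.96 to 1.02 for Pdk4 in hypoxia. The mean hypoxia calls of Pdk3 (adjusted p = 0.00275 to 0.0473) and Pdp1 (0.000623 to 0.0354) were also kept in all 19. Leaving out each library in turn, the count of members fallen was 0 to 1 in knockout hypoxia, 1 to 2 for the mean hypoxia effect and 0 to 1 for the mean genotype effect; the fit then rests on fewer samples, and a wild-type normoxia library left alone is assumed to vary like the other groups. The genotype difference in hypoxia, called in none of these fits, changed sign for Pdk1 (from -0.0033) without knockout hypoxia replicate 2 or 3, or wild-type hypoxia replicate 1, and for Pdp2 without knockout hypoxia replicate 3 or the same wild-type library; their ranges with a library left out were -0.111 to 0.146 and -0.0882 to 0.149. Of the other results for named genes in the lists, 52 fits lost a call. Over all genes, the counts risen and fallen in wild-type hypoxia, 251 and 69, became 168 and 32 without the variance trend, 193 and 35 in the fit of those groups only, and 143 to 248 and 18 to 72 with a library left out. In knockout hypoxia 464 and 138 became 288 and 63 without the trend and 303 to 479 and 64 to 156 with a library left out. For genotype in normoxia 506 and 833 became 294 and 555 in the fit of those groups only, 319 risen without the trend, and 229 to 530 and 439 to 835 with a library left out, and in hypoxia 491 and 827 became 318 to 497 and 598 to 846. For the difference between the hypoxia effects 1 and 0 became 4 and 1 with DESeq2 and 0 risen with a pseudocount of 5, a filter at 50 or edgeR. For the mean hypoxia effect 377 fallen became 224 without the trend and 189 to 342 with a library left out. The cause of these shifts was not tested. Depth limits Pdk2 most, with 75 to 162 reads in a library.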
